A study of Mus musculus with 8 samples.

Results

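Nppa and Nppb, the genes of atrial natriuretic peptide (ANP) and B-type natriuretic peptide (BNP), were followed in nuclear RNA of HL1 cells, an immortalised mouse cardiac muscle line that descends from an atrial tumour lineage. The 2 genes were chosen by their symbols, and among the 65265 rows of the short-read gene table Nppa was found as an assembled locus at its position and Nppb by its RefSeq entries. RNA came from nuclei that had been extracted with urea and detergent. The insoluble pellet is the chromatin fraction and the supernatant is the nucleoplasm fraction. Short reads came from 3 chromatin and 3 nucleoplasm libraries, the fractions of 3 independent cultures, and nanopore reads came from 2 chromatin libraries. All libraries are of the same line, grown in Claycomb medium with norepinephrine, ascorbic acid and serum, so no untreated or in vivo reference stands beside them. The short-read libraries held between 91657034 and 121773350 counted reads.

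ANP and BNP are hormones that heart muscle cells secrete when the chamber wall is stretched. Both are made as precursors that proteases cut, and both act on receptor guanylyl cyclases that raise cyclic GMP, which lowers blood pressure and promotes salt excretion. In the adult heart Nppa is best known as an atrial gene, whose product is stored in secretory granules, and both genes come back on in ventricular muscle under load.

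Each hormone is built around a ring closed by a bond between a pair of cysteines, which is the part of the molecule that the family shares. The stretch of 51 bases that codes for the ring of BNP is shown as the functional core of Nppb. It was read from the GENCODE M21 transcript (GRCm38, plus strand) and lies in exon 2, at chr4:147986464-147986514. Capitals mark the codons of the ring-closing cysteines.
Nppb ring: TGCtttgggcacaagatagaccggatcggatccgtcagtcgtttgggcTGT
The longest stretch without a mismatch anywhere between the full transcripts, of 865 bases for Nppa-201 and 781 bases for Nppb-201, was 10 bases, so no read longer than that could match both transcripts exactly.

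The genes lie next to each other on the plus strand of chromosome 4 (mm10). Nppb (ENSMUSG00000029019.8) spans 147985788 to 147987205 and Nppa (ENSMUSG00000041616.9) spans 148000722 to 148002079, with 13516 bases between them and 3 exons in each. The short-read assembly had a locus of its own for Nppa, with the same start as the annotated gene. For Nppb it had none, and the value used was the sum of the 3 RefSeq transcript entries of the gene.

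Nppa was counted in every short-read library, at low levels. Chromatin replicates 1 to 3 had 26.4, 25.2 and 10.4 normalized counts, which stand for 26, 24 and 10 reads. Nucleoplasm replicates 1 to 3 had 101, 113 and 15.9 normalized counts, or 100, 94 and 22 reads. Nucleoplasm replicates 1 and 2 stood above all other libraries, while nucleoplasm replicate 3 fell inside the chromatin range, so the fractions overlapped. The mean over 3 libraries was 20.7 ± 8.90 (SD) in chromatin, against 76.6 ± 52.8 (SD) in nucleoplasm. On the scale of log2(normalized count + 1) chromatin minus nucleoplasm was -1.53 with an SE of 0.84, which did not pass the threshold (limma adjusted p = 0.192).

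Nppb was lower still, and its fractions overlapped as well. Chromatin replicates 1 to 3 had 7.12, 15.7 and 7.29 normalized counts from 7, 15 and 7 reads. Nucleoplasm replicates 1 to 3 had 24.3, 28.8 and 10.1 normalized counts from 24, 24 and 14 reads. Nucleoplasm replicate 3 was again the lowest of its fraction and lay below chromatin replicate 2. Its mean over 3 libraries was 10.0 ± 4.92 (SD) in chromatin, against 21.1 ± 9.71 (SD) in nucleoplasm, and the log2 difference was -0.97 with an SE of 0.55 (limma adjusted p = 0.210). Most of the Nppb counts came from the entry NM_008726.5, which had 0, 13.6 and 4.16 normalized counts in chromatin and 22.2, 25.2 and 6.52 in nucleoplasm. The shorter model XM_006538627.3 had between 2.02 and 7.12 normalized counts in the 6 libraries, and NM_001287348.1 was listed at 0 in all of them.

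**Figure D1:**
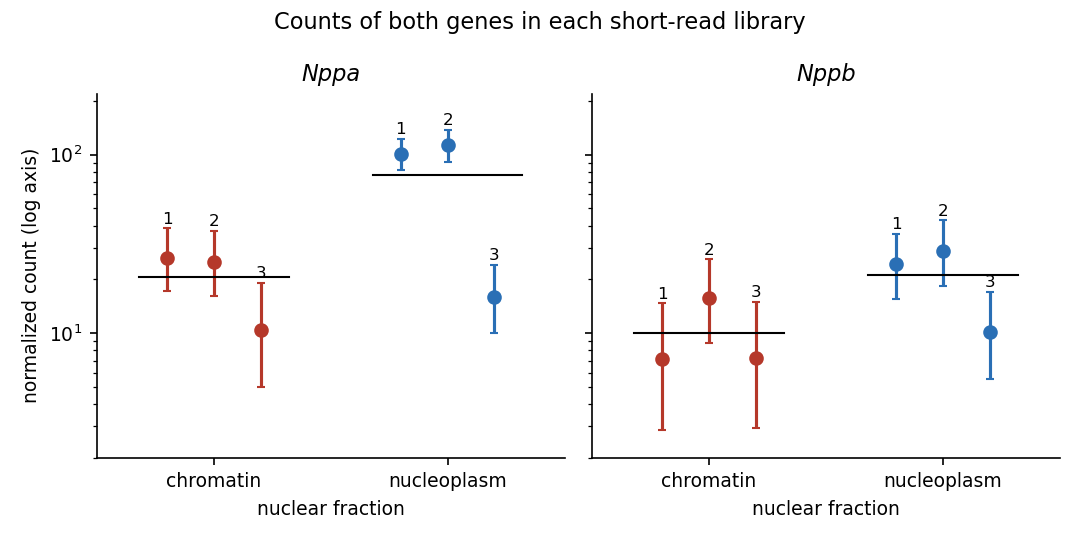
Normalized counts (log axis) of Nppa and Nppb in chromatin (red) and nucleoplasm (blue), with 1 point per library numbered by replicate. Bars are exact Poisson 95% intervals, which cover counting error only, and black lines are means of 3 libraries; replicate 3 of nucleoplasm lies within the chromatin range for both genes.

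Counting error alone was wide at these depths. For Nppa the exact Poisson 95% interval of the normalized count ran from 4.99 to 19.1 in chromatin replicate 3 and from 9.99 to 24.1 in nucleoplasm replicate 3, so these 2 libraries could not be told apart by counting. In replicate 1 the intervals were 17.3 to 38.7 in chromatin and 82.2 to 123 in nucleoplasm, which do not meet. For Nppb the intervals of replicate 1 were 2.86 to 14.7 and 15.5 to 36.1. Those of replicate 3 overlapped, at 2.93 to 15.0 in chromatin and 5.55 to 17.0 in nucleoplasm.

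Neither gene was called by limma, where 47.8% of the 35816 rows tested passed an adjusted p of 0.05, 26.9% higher and 20.9% lower in chromatin. The unadjusted p-values of this fit were 0.117 for Nppa and 0.131 for Nppb, so neither passed 0.05 without adjustment. The edgeR quasi-likelihood test on recovered reads gave adjusted p = 0.0938 and 0.181, and DESeq2 gave adjusted p = 0.0590 and 0.290. In each of the 3 replicate numbers both genes were lower in chromatin than in the nucleoplasm library of that number. The sources do not say that a number marks a culture, but a fit with the number as a block called Nppa (limma adjusted p = 0.0374, edgeR adjusted p = 0.0352) and did not call Nppb (limma adjusted p = 0.117, edgeR adjusted p = 0.115). The Nppa result also depended on nucleoplasm replicate 3. Without that library the log2 difference was -2.42 (limma adjusted p = 0.0213), and without replicate 3 of both fractions it was -2.01 (limma adjusted p = 0.00513). The same omissions gave -1.40 (adjusted p = 0.0769) and -1.23 (adjusted p = 0.170) for Nppb in limma. Over all rows the median log2 difference was 0.38 and moved to 0.84 when libraries were scaled to the ERCC standards and to 0.0084 under quantile normalization. Under these scalings Nppa was -0.82 and -2.37, and Nppb was -0.28 and -2.16, where the last value passed the threshold (limma adjusted p = 0.0392).

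The ratio of Nppa to Nppb was compared between fractions within each library. The log2 ratio of normalized counts + 1 was 1.76, 0.65 and 0.46 in the chromatin libraries, and 2.01, 1.93 and 0.60 in those of nucleoplasm, in order of replicate number. Nppa was above Nppb in all 6 libraries on this scale, which is not set per length. The mean ratio was 0.95 ± 0.70 (SD) in chromatin, against 1.52 ± 0.79 (SD) in nucleoplasm (n = 3 each), and the difference of -0.56 did not stand out from the spread (two-sided exact permutation test, p = 0.300, where the smallest p that 3 against 3 libraries allow is 0.1).

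Set per kb of annotated exon, the hormone genes lay near the middle of all protein-coding genes. Nppa had a mean of 23.9 normalized counts per kb in chromatin and 88.5 in nucleoplasm, above 44.7% and 51.8% of 19753 protein-coding genes. Nppb had 12.9 and 27.0 normalized counts per kb, above 41.6% and 45.7% of these genes. Of the same genes, 15291 in chromatin and 14808 in nucleoplasm had a level above 0, and among those Nppa stood above 28.5% and 35.8% and Nppb above 24.5% and 27.6%. Per kb of the whole gene span, introns included, Nppa stood above 53.8% of the protein-coding genes in chromatin and 67.4% in nucleoplasm, and Nppb above 48.1% and 53.3%.

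Of the 5 other atrial markers with a row, 4 had higher levels per kb of exon than both hormone genes and 1 had lower levels. Per kb of the whole gene span Myl4 and Myl7 stayed above both. On that scale Kcnj3 stood above 48.8% of protein-coding genes in each fraction, below the 53.8% and 67.4% of Nppa. Sln stood above 52.6% in chromatin and 69.1% in nucleoplasm. Myl7, the atrial regulatory myosin light chain, had 13269 normalized counts per kb in chromatin and 55982 in nucleoplasm, above 99.8% and 100.0% of genes. Myl4, the atrial essential light chain, had 1920 and 3299 normalized counts per kb. Sln, which codes for the calcium pump regulator sarcolipin, was closer to the hormone genes with 44.0 and 212 normalized counts per kb. Bmp10, a growth factor gene of the atrium, lay below them with 3.63 and 4.30 normalized counts per kb. Of the ventricular markers, Myl2 and Myl3 had at most 16.2 normalized counts in any library and Irx4 was listed at 0 in all 6. Summed over the 5 atrial markers with a row, Nppa left out, the libraries held between 8626 and 25418 normalized counts in chromatin and between 26899 and 67270 in nucleoplasm. Of the cardiomyocyte markers, 6 of 8 had a row by the rule used, and all 6 had a mean above 100 normalized counts.

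**Figure D2:**
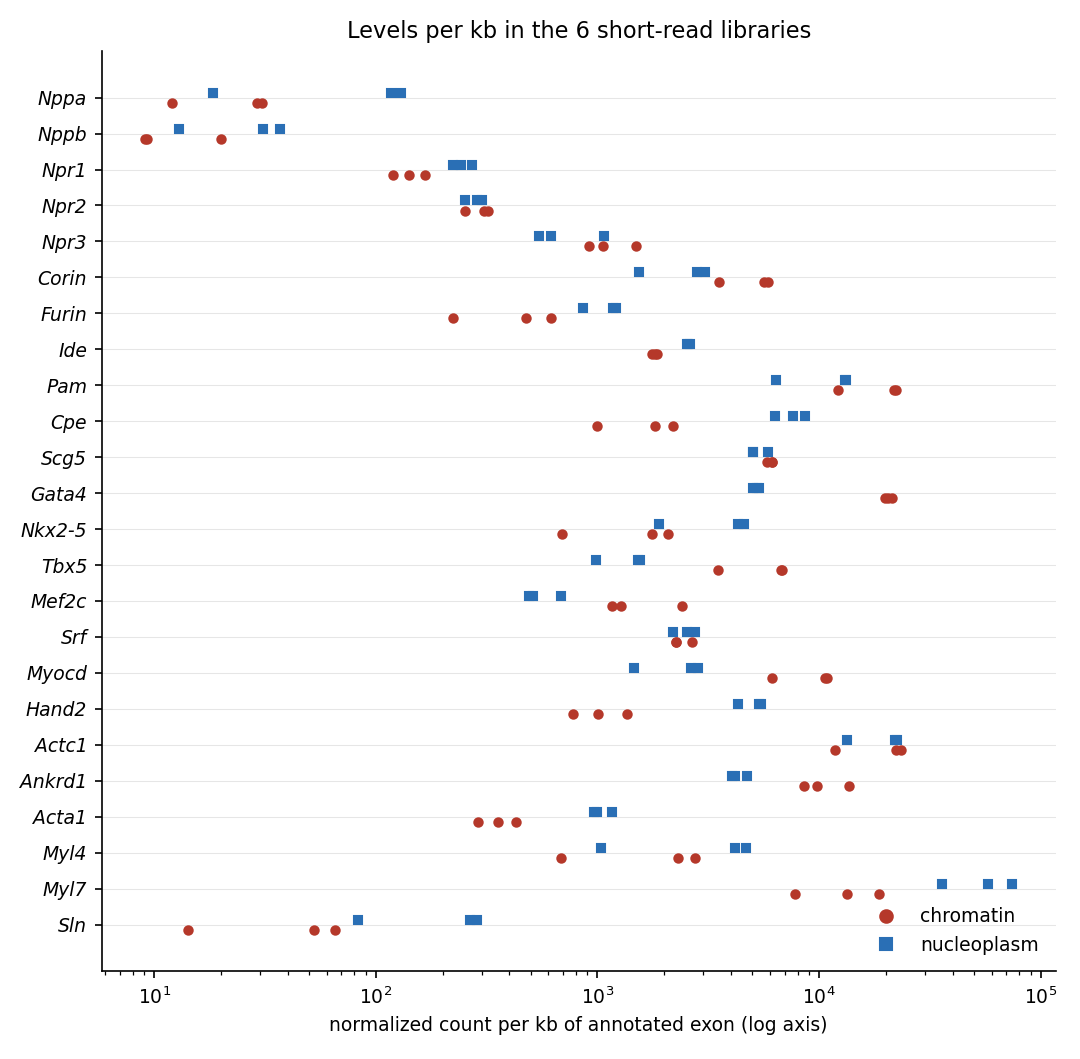
Normalized counts per kb of annotated exon (log axis) for Nppa, Nppb and genes of their pathway, their regulators and atrial muscle, with 1 point per library (red circles, chromatin; blue squares, nucleoplasm). Within each fraction Nppa and Nppb lie below all other genes drawn except Sln, whose lowest library lies among the Nppa values in chromatin and in nucleoplasm.

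Replicate 3 stood apart from replicates 1 and 2 in both fractions. Nppa was lowest there in both fractions, and Nppb in nucleoplasm. In chromatin Nppb had 7 reads in replicate 1 and in replicate 3, and 15 in replicate 2. On the log2 scale replicate 3 minus the mean of the other two replicates was -1.23 in chromatin and -2.67 in nucleoplasm for Nppa, and -0.49 and -1.30 for Nppb. Across 23913 rows with a mean of at least 10 normalized counts, 90% of these shifts lay between -1.32 and 1.98 in chromatin and between -1.26 and 2.07 in nucleoplasm. Only 5.48% of the rows had a lower shift than Nppa in chromatin and 2.26% in nucleoplasm. For Nppb these shares were 20.1% and 4.85%.

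Most muscle markers were lower in the same libraries and most fibroblast markers were higher, while endothelial markers went both ways. Of the 5 atrial markers, 4 were lower in replicate 3 of both fractions, among them Myl4 with shifts of -1.88 and -2.09 and Sln with -1.98 and -1.72. The exception was Bmp10, which was listed at 0 in replicates 1 and 2 of both fractions and had 48.9 and 58.0 normalized counts in replicate 3. All 6 cardiomyocyte markers with a row were lower in replicate 3 of both fractions, and the thin-filament gene Tnnc1 had the lowest shifts of them, -2.54 and -2.10. Of 6 fibroblast markers with a mean of at least 10, 5 were higher in replicate 3 of both fractions. Their summed level over the whole list of 7 was 120670, 135634 and 174007 normalized counts in chromatin and 259211, 253853 and 461194 in nucleoplasm, most of it from the collagen genes Col1a1 and Col3a1, while Lum had a mean of 0 in chromatin and at most 2.02 in nucleoplasm. The 6 endothelial markers summed to 1708, 1828 and 1054 normalized counts in chromatin and 2934, 2788 and 1758 in nucleoplasm, also lowest in replicate 3. Both of them with a mean of at least 100 were lower there, the growth factor receptor genes Kdr (-0.87 in chromatin and -0.68 in nucleoplasm) and Tek (-0.60 and -0.83), while the defining genes Cdh5 and Vwf were listed at 0 in all libraries. In RNA from whole cultures, fewer muscle cells and less hormone RNA per muscle cell cannot be told apart, and the part of these markers in the Nppa result was not tested.

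**Figure D3:**
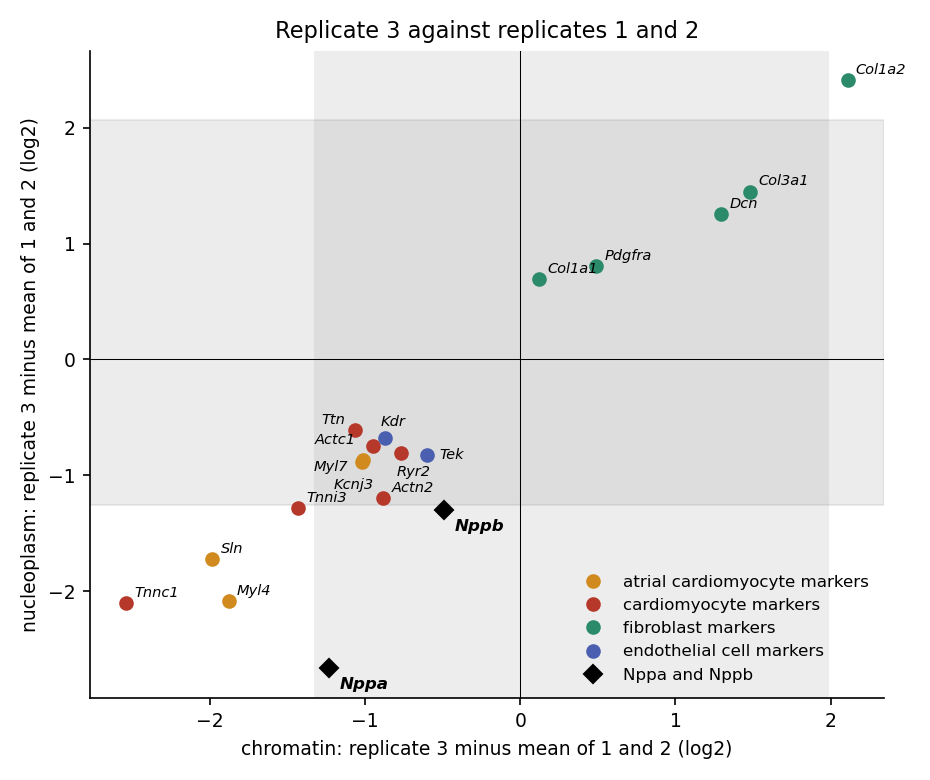
Replicate 3 minus the mean of replicates 1 and 2 (log2 of normalized count + 1) in chromatin (x axis) and nucleoplasm (y axis) for Nppa and Nppb (black diamonds) and for markers with a mean of at least 100 normalized counts. Shaded bands hold the middle 90% of 23913 rows on each axis; muscle and endothelial markers and both hormone genes lie at the lower left and fibroblast markers at the upper right.

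Per kb of exon the receptors were more abundant than the hormones in every library, and they differed among themselves. Npr1 is the guanylyl cyclase that binds ANP and BNP, Npr2 is the cyclase for C-type natriuretic peptide, and Npr3 is the clearance receptor that removes all of them. Per kb of exon Npr3 led with 1154 normalized counts in chromatin and 744 in nucleoplasm, followed by Npr2 with 295 and 280 and Npr1 with 143 and 245. Their rows can include intron reads. Per kb of the whole gene span Npr1 stood above 65.8% of protein-coding genes in chromatin and 71.9% in nucleoplasm. Npr2 stood above 72.5% and 69.9%, Npr3 above 84.5% and 76.0%, and Nppa above 53.8% and 67.4%. On that scale Nppa lay above Npr1 and Npr2 in nucleoplasm replicates 1 and 2. Npr1 had 569, 677 and 799 normalized counts in chromatin and 1068, 1157 and 1296 in nucleoplasm. Its fractions did not overlap, and it was lower in chromatin by a log2 difference of -0.79 with an SE of 0.15 (limma adjusted p = 0.00606). That call was lost under ERCC scaling, where the difference was -0.06, and under quantile normalization, where it was -0.51 (limma adjusted p = 0.0573). Npr2 had a log2 difference of 0.07 (SE 0.13) and Npr3 of 0.67 (SE 0.31), and neither passed the test. The remaining genes of this list, Nppc for C-type natriuretic peptide and Ostn, which codes for a peptide that competes for Npr3, had at most 42.8 and 12.1 normalized counts. Of 5 genes 1 was lower in chromatin (20.0%, beside 20.9% of all rows) and 0 were higher (beside 26.9%). Their median log2 difference was -0.58, beside 0.38 over all rows.

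Of the proteases that act on the peptides, Corin, Furin and Ide were well read and others were not. Corin, the membrane protease that cuts the ANP precursor, had 31896, 30514 and 19040 normalized counts in chromatin and 16494, 15244 and 8319 in nucleoplasm. Its level per kb of exon was above that of 98.7% of protein-coding genes in chromatin, where Nppa was above 44.7%. Per kb of the whole gene span these shares were 81.7% and 53.8%. Corin was higher in chromatin by a log2 difference of 1.05 with an SE of 0.33 (limma adjusted p = 0.0410). The call was lost in 10 of 19 alternatives. It was lost whichever of the 6 libraries was left out, with limma adjusted p from 0.0541 to 0.172. It was also lost in edgeR (adjusted p = 0.0550), and in limma with no filter (adjusted p = 0.138). The same held in limma without the trend (adjusted p = 0.0672) and under quantile normalization (adjusted p = 0.191). Furin, the convertase that can cut the BNP precursor, had 4376, 5644 and 2046 normalized counts in chromatin and 11135, 10776 and 7906 in nucleoplasm, and was lower in chromatin (log2 difference -1.41, SE 0.39, limma adjusted p = 0.0254). This call was lost in 6 of 19 alternatives, namely with no filter, under ERCC scaling, and without chromatin replicate 1 or any 1 nucleoplasm library, with limma adjusted p from 0.0696 to 0.160. Ide, the insulin-degrading enzyme that also breaks down natriuretic peptides, was lower by -0.51 (SE 0.08), a direction that turned to 0.22 under ERCC scaling. Mme, which codes for neprilysin, the main peptide-degrading enzyme, had at most 18.8 normalized counts, and Pcsk6, which codes for the convertase that activates corin, was listed at 0. Of 6 genes 5 were tested, with a median of -0.51. In chromatin 1 was higher (20.0%, beside 26.9% of all rows) and 2 were lower (40.0%, beside 20.9%).

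Of 13 genes of cyclic GMP signalling 10 were tested. In chromatin 3 were lower and 0 were higher (beside 26.9% of all rows), with a median log2 difference of -0.0025. The lower genes made up 30.0% of those tested, beside 20.9% of all rows. They were Vasp, a phosphorylation target of cGMP-dependent kinase (-1.20, SE 0.09), Pde2a, a phosphodiesterase that cGMP stimulates (-1.13, SE 0.19), and Gucy1b1, a subunit of the nitric oxide-sensitive cyclase (-0.82, SE 0.15). None of the 3 calls held under ERCC scaling, which left 0 genes of the list lower and 1 higher. The kinase gene Prkg1 had 2442 to 4059 normalized counts in chromatin and 2679 to 3613 in nucleoplasm, with a log2 difference of -0.02 (SE 0.22). The cGMP phosphodiesterases Pde5a (-0.21, SE 0.09) and Pde9a (0.02, SE 0.18) did not pass either. The other 4 tested genes, Prkg2, Pde1a, Pde3a and Trpc6, had at most 8.33 normalized counts in any library, and their uncalled log2 differences ran from 0.08 to 1.75.

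The granule genes ranged from among the most abundant RNAs to genes listed at 0. Pam, the amidating enzyme that is a main membrane protein of atrial granules, had 264342, 259598 and 144114 normalized counts in chromatin and 157826, 155379 and 75786 in nucleoplasm, with a log2 difference of 0.80 (SE 0.39) that did not pass. Scg5, a chaperone of a prohormone convertase, was at 7867 to 9647 normalized counts in the 6 libraries (0.19, SE 0.09). Cpe, which codes for the sorting and trimming enzyme carboxypeptidase E, was lower in chromatin, with 4723, 5691 and 2600 normalized counts against 22428, 19945 and 16584 (log2 difference -2.24, SE 0.30, limma adjusted p = 0.00142). The granins were at low counts, with Chga at 0 in every library and Chgb at no more than 4.04 normalized counts. Scg2 had 10.8 to 27.5 normalized counts in the 6 libraries and Scg3 had 6.24 to 22.2, counts like those of Nppb. Per kb of exon both lay below the 12.9 in chromatin and 27.0 in nucleoplasm of Nppb. Scg2 had 6.60 and 7.09 normalized counts per kb, and Scg3 had 3.27 and 6.60. Of 9 genes 7 were tested, with a median of -0.74. In chromatin 1 was lower (14.3%, beside 20.9% of all rows) and 0 were higher (beside 26.9%).

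Of 13 transcriptional regulators of these genes with a row, 7 stood above 90% of protein-coding genes per kb of exon in chromatin. Others were close to the hormone genes, with 6.01 and 5.03 normalized counts per kb in chromatin and nucleoplasm for Nfatc4, 7.23 and 8.92 for Hey2, and 39.4 and 22.2 for Tbx2. Gata4, a zinc-finger factor of heart muscle, had 80244, 77622 and 82875 normalized counts in chromatin and 20568, 19628 and 20977 in nucleoplasm, and was higher in chromatin by 1.98 (SE 0.09, limma adjusted p = 3.15e-05). Tbx5, the T-box factor of the atria, was higher by 2.03 (SE 0.32), Myocd, the coactivator of serum response factor, by 2.01 (SE 0.34), and Mef2c by 1.46 (SE 0.31). These 4 calls held in all 19 alternatives. Hand2, a helix-loop-helix factor, went the other way, with a log2 difference of -2.30 (SE 0.22), and Rest, which represses both hormone genes in muscle, was lower in chromatin by -0.47 (SE 0.11). Without the trend, under ERCC scaling and when scaled to total reads only 1 regulator was lower, and since Hand2 held in all 19 alternatives, the call lost there was that of Rest. Nkx2-5, the homeobox factor of heart muscle, had 3029, 3595 and 1194 normalized counts in chromatin and 7381, 7882 and 3272 in nucleoplasm, with a log2 difference of -1.29 (SE 0.53) that did not pass. Of 14 genes 13 were tested, with a median of 0.25, beside 0.38 over all rows. In chromatin 4 were higher (30.8%, beside 26.9% of all rows) and 2 lower (15.4%, beside 20.9%). Gata4, the regulator with the highest level per kb of exon, had 20555 normalized counts per kb in chromatin beside 23.9 for Nppa and 12.9 for Nppb. Its row can include intron reads. Per kb of the whole gene span it stood above 98.7% of protein-coding genes in chromatin, Nppa above 53.8% and Nppb above 48.1%.

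Other genes of the cardiac load response were called in both directions. Ankrd1, a stretch-sensing repeat protein, had 28136, 24766 and 39286 normalized counts in chromatin and 12044, 11645 and 13580 in nucleoplasm and was higher in chromatin (1.28, SE 0.19). Acta1, the skeletal actin of the fetal programme, was lower (-1.55, SE 0.17), as was Rcan1, a calcineurin regulator (-1.17, SE 0.09). The Rcan1 call was lost under ERCC scaling (-0.44, limma adjusted p = 0.110). Actc1, the cardiac actin, had a log2 difference of -0.04 (SE 0.34), Atp2a2, the calcium pump, of 0.28 (SE 0.27), and Xirp1 of 1.03 (SE 0.36), and none of these passed. Of 9 genes 7 were tested, with a median of 0.28. In chromatin 1 was higher (14.3%, beside 26.9% of all rows) and 2 lower (28.6%, beside 20.9%). Over all lists 56 genes were looked up, 4 had no row by the rule, 5 were listed at 0, and of 47 tested 6 were higher (12.8%, beside 26.9% of all rows) and 11 lower in chromatin (23.4%, beside 20.9%). Without replicate 3 of both fractions these counts were 10 and 14, and under ERCC scaling they were 15 and 3.

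**Figure D4:**
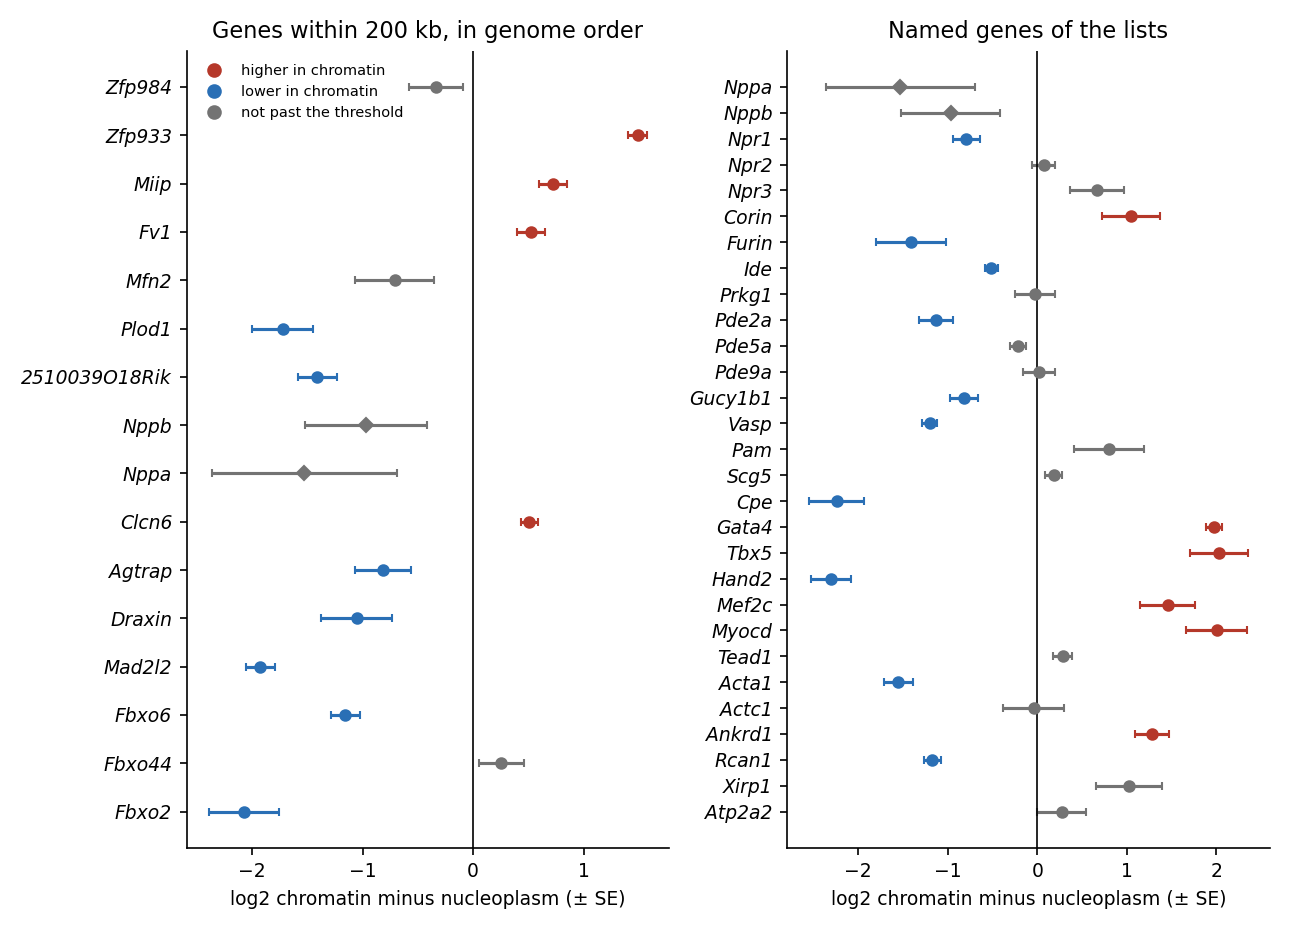
Chromatin minus nucleoplasm (log2 of normalized count + 1, bars ± SE of the limma fit, 3 libraries per fraction) for 14 of the 15 protein-coding genes within 200 kb, with the 2 genes among them in genome order (left), and for the named genes of the lists (right). Nppa and Nppb (grey diamonds) have negative values with wide bars and did not pass the threshold, while genes on either side of them were called in both directions.

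Around the genes the short-read table was sparse. Within 20 kb on either side of them 5 rows lay in the window, and 4 were above 0 in at least 1 library. These were Nppa, both counted Nppb entries and Clcn6, the gene of an endosomal chloride transporter on the minus strand, whose 3' end lies 2179 bases from the end of Nppa. Clcn6 had 4154, 3819 and 4381 normalized counts in chromatin and 2895, 2860 and 2908 in nucleoplasm. It was higher in chromatin by 0.51 (SE 0.08, limma adjusted p = 0.00262), a call that held in all 19 alternatives. No row lay in the 13516 bases between the genes, and 0 rows on the minus strand overlapped Nppa, although GENCODE has an antisense gene there, Gm13054, at 148001091 to 148004014.

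The wider neighbourhood was called gene by gene in both directions. Of 15 other protein-coding genes that start within 200 kb, 5 were higher in chromatin (33.3%, beside 26.9% of all rows), 7 were lower (46.7%, beside 20.9%) and 3 did not pass. Among the higher genes were Zfp933 (1.49, SE 0.09), Miip (0.72, SE 0.13), Fv1, a retrovirus restriction gene (0.52, SE 0.13), and Clcn6. The Fv1 call was lost in 4 of 19 alternatives, without chromatin replicate 1 or 2 or nucleoplasm replicate 2 or 3 (limma adjusted p from 0.0533 to 0.0604). Those with the lowest log2 differences were Fbxo2 (-2.07, SE 0.32), Mad2l2, a DNA repair gene (-1.93, SE 0.13), and Plod1, a collagen-modifying enzyme (-1.72, SE 0.28). Of these 3 calls that of Fbxo2 was lost with replicates 1 and 2 alone (limma adjusted p = 0.0538). The median of the 15 was -0.71, beside 0.38 over all rows, and under ERCC scaling 6 were higher and 3 lower. All 15 had a mean of at least 10 normalized counts. Among the 23913 rows with such a mean the median was 0.049, and limma called 7914 higher and 7637 lower. Draxin, the gene with the lowest counts of the 15, had a mean of 11.0 ± 2.19 (SD) in chromatin, against 23.8 ± 1.47 (SD) in nucleoplasm. These normalized counts were close to those of Nppb, but per kb of exon Draxin had 2.12 and 4.57, below the 12.9 and 27.0 of Nppb. Its log2 difference of -1.05 (SE 0.32) passed the test (limma adjusted p = 0.0382) but not in 9 of 19 alternatives.

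The long-read libraries were of chromatin RNA only, so they hold no comparison of fractions. Nppa (NM_008725.3) had 4.41 TPM in replicate 1 and 0.93 TPM in replicate 2, and Nppb (NM_008726.5) had 1.94 and 0.32 TPM. Both were lower in replicate 2, as was Clcn6 with 8.86 and 4.74 TPM. By mean TPM Nppa stood above 51.2% and Nppb above 18.4% of 109061 transcripts with a value above 0.

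A transcript on the minus strand over the start of Nppa was the other long-read signal at the gene. It spanned chr4:148000375-148001399, or 1025 bases. As assembled on the minus strand, it began inside Nppa and ended 347 bases before the annotated start of that gene. It covered 678 bases of Nppa, exon 1 and exon 2 included. It had 5.32 TPM in replicate 1 and 8.93 TPM in replicate 2, above Nppa in both, and its mean was above that of 82.9% of transcripts. It shared 309 bases with Gm13054 and had no counterpart in the stranded short-read table. The long-read libraries were not stranded, so reads from Nppa and from this transcript cannot be told apart by strand, and on both strands together Nppa had 9.73 and 9.86 TPM. A second assembled transcript of 4.53 and 6.05 TPM lay on the plus strand inside Clcn6, 19.8 kb from the start of Nppa, and 0 long-read transcripts opposed Nppb.

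**Figure D5:**
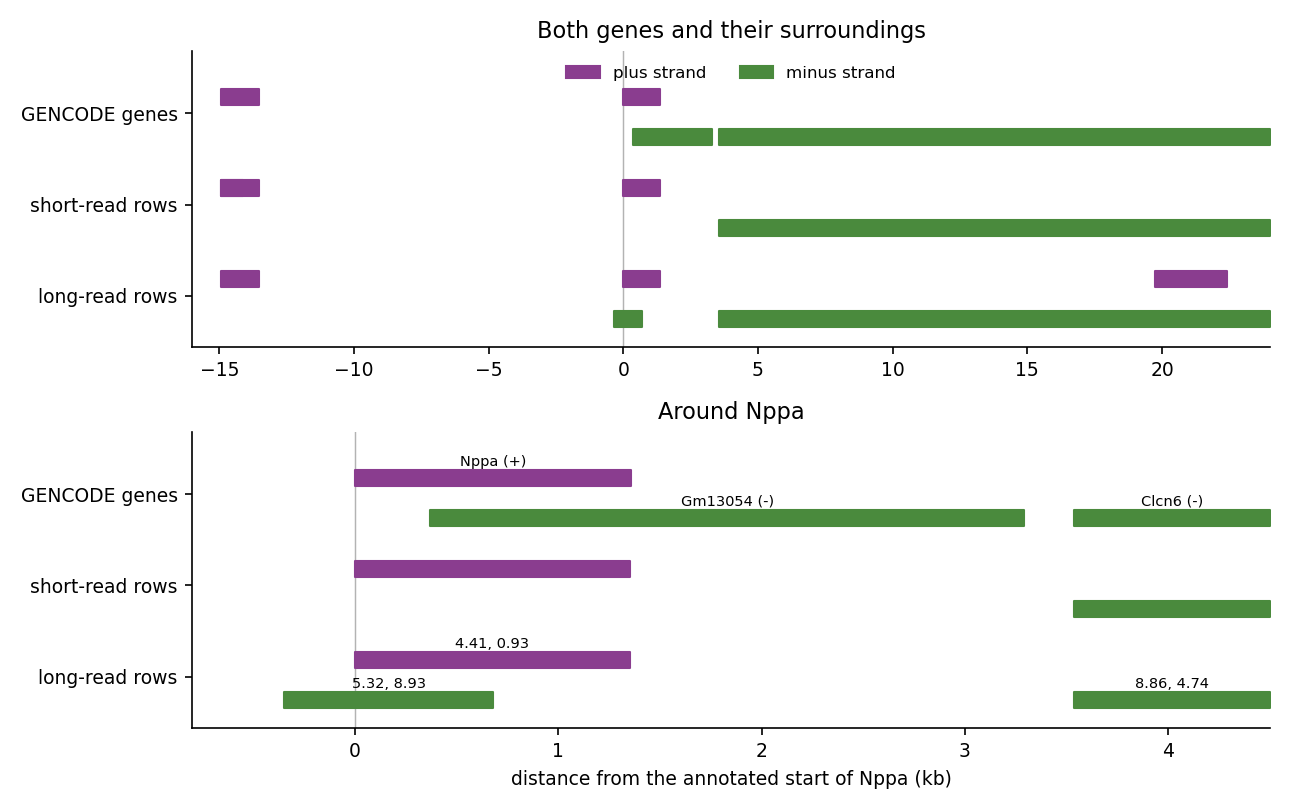
Distance from the annotated start of Nppa (kb, x axis) of GENCODE genes, short-read rows above 0 and long-read rows above 0, with the plus strand in purple and the minus strand in green. The lower panel enlarges the start of Nppa and gives TPM in long-read replicates 1 and 2 above each bar; the minus-strand long-read transcript crosses the start and has no short-read bar under it.

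The 250 bases before the annotated start of Nppa are shown because that transcript spans all of them. They are RefSeq sequence of GRCm38.p6, chr4:148000472-148000721, plus strand, and capitals mark 3 motifs of factors named above or of the basal promoter.
Nppa promoter: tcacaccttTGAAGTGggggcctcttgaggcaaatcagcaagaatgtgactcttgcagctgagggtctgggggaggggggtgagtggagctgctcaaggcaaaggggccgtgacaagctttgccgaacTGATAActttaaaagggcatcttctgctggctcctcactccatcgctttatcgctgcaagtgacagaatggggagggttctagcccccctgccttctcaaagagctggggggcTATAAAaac
Motifs were searched on both strands and did not overlap each other. TNAAGTG, the letters of an NKX element, was found 1 time and is held by 10.1% of 32851 RefSeq promoter windows of the same length. The element of GATA factors, TGATAA, was found 1 time, 116 bases before the start, and is held by 7.94% of windows. TATAAA, the letters of a TATA box, was found 1 time, with its end 3 bases from the annotated start, and is held by 12.4%. CATTCC, a TEAD element, was found 0 times and is held by 12.6%. These matches describe the letters in the window only.

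The genes whose profiles over the 6 short-read libraries were most like those of the hormones were ranked by the root mean square distance between centred log2 values, among 12101 rows with a symbol and a mean of at least 100 normalized counts. The 3 nearest to Nppa included Wt1os (distance 0.35) and Gm12260 (0.36). Gm12260 had 341, 431 and 121 normalized counts in chromatin and 1665, 1558 and 395 in nucleoplasm, lowest in replicate 3 of each fraction. The ranking used these same 6 libraries, so it selects for this trait and for a like difference between fractions. For Nppb the nearest were Tph1 (0.21), which codes for a tryptophan hydroxylase, Ctxn1 (0.23) and Myoz2 (0.26), a Z-disc gene of muscle. Myoz2 had 190, 221 and 120 normalized counts in chromatin and 444, 465 and 196 in nucleoplasm. Ctxn1 passed the test between fractions, with a log2 difference of -1.17 (SE 0.38, limma adjusted p = 0.0446), and the other genes named here for their profiles did not.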

How the data were processed

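Per the labels and the methods of the study, the authors aligned short reads of HL1 nuclear RNA to mm10 with HISAT2 2.1.0, assembled them with StringTie, counted genes and deposited them normalized by size factors from DESeq2, which leaves a signal per gene that is not set per length. For long reads the authors deposited TPM per assembled transcript. No column was left unmapped (0). Divided by the step of 1 read in their library, all values of the 6 short-read libraries came out whole (tolerance 0.001), and these recovered reads gave intervals and the edgeR and DESeq2 alternatives. They are counts that the authors' tool derived from coverage, so intervals also rest on its scale, and intervals cover counting error only.

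A gene's row was the assembled locus on the same strand that shares at least 0.5 of the joint span with a GENCODE M21 gene, or else the sum of its RefSeq entries. Fractions were compared with limma 3.58.1 (R 4.3.3), with a trend, on log2(normalized count + 1) for rows that any library had above 0, and p-values were adjusted by Benjamini-Hochberg. The pseudocount means that fold changes of low genes are understated. Alternatives were edgeR 4.0.16, DESeq2 1.42.0, other pseudocounts, filters, scalings, lengths, strands, left-out libraries and a replicate block. Functions were tested on simulated data. Permutation tests used scipy 1.17.1 (Python 3.11.15). The label for RNA fraction reads chromatin in all libraries, so titles gave the groups.

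Members and lists were chosen with earlier results of these data known. Named genes were the members, rows within 20 kb, protein-coding genes starting within 200 kb, up to 6 genes a list with a mean of at least 100 normalized counts in either fraction and the highest means, and the 3 most like profiles. Marker genes, and Nppc, Ostn, Mme, Pcsk6, Chga, Chgb, Scg2, Scg3, Nkx2-5, Rest, Nfatc4, Hey2, Tbx2, Prkg2, Pde1a, Pde3a and Trpc6, were named after their values were seen. The assembled rows come from nuclear RNA and can include intron reads, which levels per kb of exon do not remove. A few named items that these rules select are not reported here.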

Additional observations from a re-analysis of the deposited data

How the results depend on the processing

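The Nppa difference kept its negative direction in all 20 alternatives and the Nppb difference in all 21. Nppa passed the threshold without nucleoplasm replicate 3, where leaving out 1 library at a time gave log2 differences from -2.42 to -1.05, and with replicates 1 and 2 of both fractions (-2.01), a setting chosen after seeing the data. The replicate number was tried as a block. Same-numbered chromatin and nucleoplasm libraries deviated together with r = 0.0978, 0.0883 and 0.222 over 35816 rows, not all above 0.1, so the numbers were not taken as pairs, although each library correlated best with its own number and both fractions came from 3 cultures. With the block Nppa was -1.53 in limma (adjusted p = 0.0374) and -1.71 in edgeR (adjusted p = 0.0352), Nppb did not pass, 10307 rows were higher and 8456 lower in limma against 9631 and 7477 without it, and the lists had 11 genes higher in limma and 10 in edgeR against 6, with Npr3, Pam and Xirp1 called higher in both. For the ratio of Nppa to Nppb the block gave a mean difference of -0.56, with -0.26, -1.29 and -0.14 in the 3 numbers. Nppb passed under quantile normalization alone (-2.16).

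Scaling to the ERCC total left 3109 rows lower, with 15 list genes higher and 3 lower, and with replicates 1 and 2 alone 10 list genes were higher. On both strands long-read Nppa was 9.79 TPM against 2.67 on its own strand. No alternative was left out of those planned; the cause of these shifts was not tested. Genes that changed sign were uncalled, apart from Ide. Under ERCC scaling Actc1 was 0.70, Mfn2 0.023, Pde5a 0.52, Prkg1 0.71 and Zfp984 0.40, and Ide 0.22. Scaled to total reads Actc1 was 0.0100 and Prkg1 0.024. Under quantile normalization Prkg1 was 0.088, Scg5 -0.078 and Tead1 -0.11. In edgeR Npr2 was -0.031 and Pde9a -0.095, with the replicate block -0.035 and -0.088, and in DESeq2 Prkg1 was 0.00065. With replicates 1 and 2 alone Actc1 was 0.030 and Pde9a -0.040. Leaving out 1 library at a time, Actc1 ranged from -0.29 to 0.28, Npr2 from -0.0030 to 0.18, Pde9a from -0.15 to 0.13 and Prkg1 from -0.24 to 0.12. The low read counts of both genes limit what these libraries can show.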
